A study of Drosophila melanogaster with 2 samples.

Results

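The ionotropic receptor (Ir), pickpocket (ppk) and odorant-binding protein (Obp) genes are 3 gene families of fly chemical and mechanical sensing. They were taken as all probe sets that the array annotation assigns to a single gene whose current symbol is Ir or Obp followed by a digit, or ppk alone or followed by a digit. This gave 141 of 18952 probe sets, for 127 of the 11983 genes that had a probe set of their own. Of the 127 genes 53 were Ir, 27 ppk and 47 Obp genes. All 141 probe sets carried the same symbol in the array annotation and in the current gene table. The rule for membership uses gene names and no measured value, although the families were picked with earlier results of these data known.

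The signals come from Drosophila melanogaster S2 cells, an established cell line of embryonic origin that resembles the phagocytic blood cells (hemocytes) of the fly. The cells were soaked for 8 days, in 2 rounds of 4 days, with dsRNA (RNA with both strands paired) against GFP, the green fluorescent protein of a jellyfish, a sequence with no counterpart among fly genes. The 2 Affymetrix Drosophila Genome 2.0 arrays, replicates 1 and 2, form the only group, so every value below is from treated cells and no effect of the treatment can be measured. The labels call the treatment duplicated without saying whether the cultures were separate, so the spread between the arrays may be technical. With a single group of 2 arrays no difference between conditions could be tested, and the results are levels, counts and the spread between the duplicates.

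Ionotropic receptors are relatives of ionotropic glutamate receptors that act as ligand-gated channels in the cilia of sensory neurons. Each tuning receptor, which sets what is sensed, works together with broadly expressed co-receptors. The pickpocket genes encode subunits of DEG/ENaC sodium channels used for touch, pain, salt, water and pheromone sensing. Odorant-binding proteins are small secreted proteins that support cells release into the fluid around sensory neurons, and some are made in other tissues, such as the male reproductive tract. None of the 3 families is known as a set of blood cell genes.

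To judge these signals, background was read from 112 odorant (Or) and gustatory (Gr) receptor genes, which are not members and are not expected in blood-like cells. The 95th percentile of their 125 probe sets was taken as the limit on each array. It was a signal of 146 on replicate 1 and 136 on replicate 2. A gene was counted above the limit where any of its probe sets exceeded it on both arrays. A gene's level is the average of the 2 arrays for its brightest probe set. Of the 112 Or and Gr genes 15 had a level of 100 or more, the highest 1490. The limit is thus a working one and may lie above true background. The same amount of RNA can give different signals on different probe sets, so an order of levels between genes is an order of signals only.

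Few of these sensory genes gave a signal above this limit in S2 cells. Of the 127 members 5 (3.94%) were above the limit on both arrays, where 49.1% of all genes were. These were the ionotropic receptor genes Ir76a and Ir68a, the channel gene ppk29, and the odorant-binding protein genes Obp18a and Obp19d. A further 3 members, Ir64a, ppk15 and ppk18, were above it on 1 array, as were 247 of all 11983 genes. The other 119 members were above it on neither. By family the count was 2 of 53 Ir genes (3.77%), 1 of 27 ppk genes (3.70%) and 2 of 47 Obp genes (4.26%). Among the Or and Gr genes that set the limit 4.46% passed, a share close to 5% by construction.

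The count depended on where the limit was set. At the 90th percentile of the receptor signals 7 members passed, with Ir64a and ppk28 added, and 51.6% of all genes did. At the 99th percentile 2 members passed, Ir68a and Ir76a, and 43.8% of all genes. A lower limit, from 50 control probe sets that carry protein accessions as names, lay at 68.4 on replicate 1 and 67.4 on replicate 2. Above it were 25 members (19.7%) and 58.2% of all genes. By family these were 10 of 53 Ir genes (18.9%), 12 of 27 ppk genes (44.4%) and 3 of 47 Obp genes (6.38%). On replicate 2 alone 6 members passed the main limit and 50.6% of all genes, and on replicate 1 alone 7 members and 49.7%. A call on a single array is the looser rule, so these counts could not fall below 5. The 5 members have 1 probe set each, so they could not fail among genes with 1 probe set (49.2% of all such genes passed). Nor could they fail where a gene was counted only with all of its probe sets above the limit (46.6% of all genes).

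**Figure D1:**
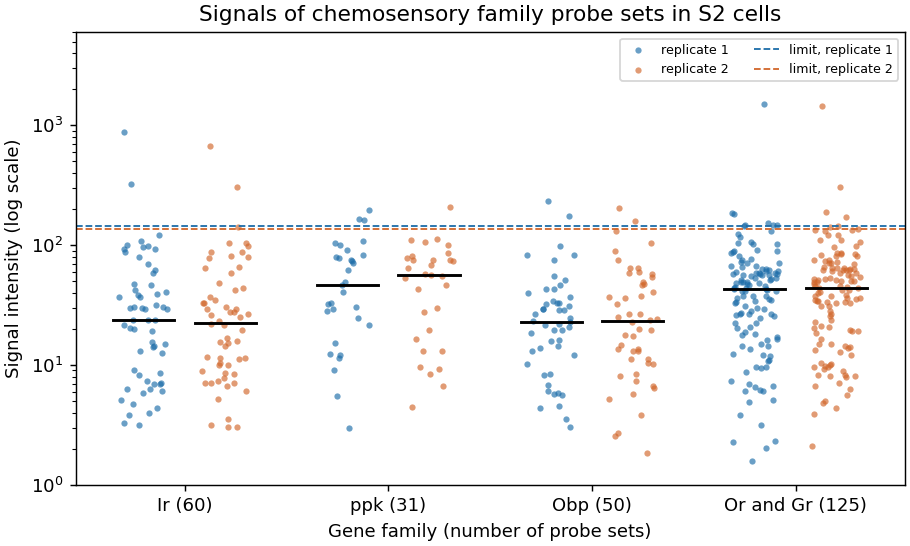
Signal intensity (log scale) of every probe set of the Ir, ppk and Obp families and of the Or and Gr receptor genes, with replicate 1 left and replicate 2 right in each family; black bars are medians and dashed lines the background limits of 146 and 136. Most points of every family lie below the lines. The highest of the Ir, ppk and Obp points is Ir76a at 877 and 672, while the Or and Gr genes reach a level of 1490.

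The median level of the members was 27.4, against 45.7 for the Or and Gr genes and 155 for the other genes of the arrays. The middle 50% of the members lay between 16.2 and 57.5. By family the median was 24.6 for Ir, 53.4 for ppk and 23.4 for Obp genes. Of the 141 member probe sets 67 (47.5%) had a mean signal under 23.7, the level that 25% of all probe sets fall below. Another 48 (34.0%) lay between that and the median of all probe sets, 70.4, and 25 (17.7%) in the next 25%. The remaining one, that of Ir76a, was among the brightest 25%. Of the 125 Or and Gr probe sets 35 were in the lowest class and 68 in the next.

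**Figure D2:**
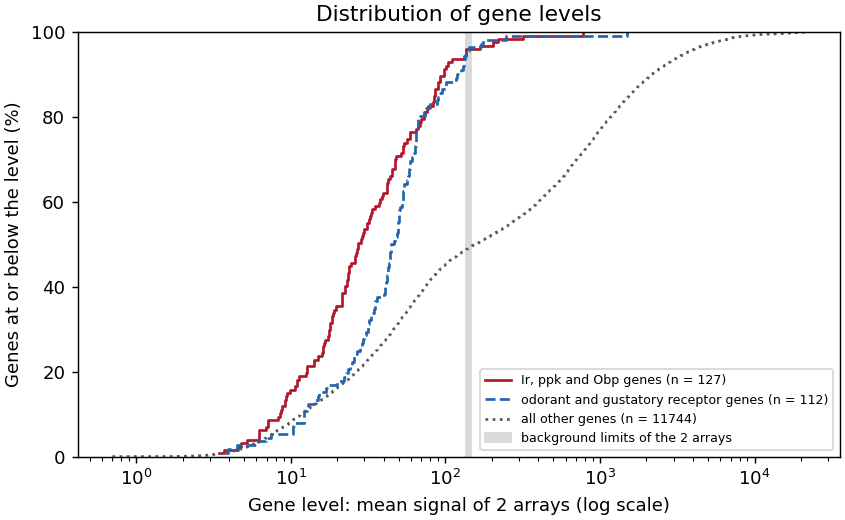
Cumulative share of genes (percent) by gene level, the mean signal of 2 arrays on a log scale, for the 127 members, the 112 Or and Gr genes and the 11744 other genes; the grey band spans the limits of the 2 arrays. The members' curve lies left of that of the other genes, with medians of 27.4 and 155.

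Among the ionotropic receptors, the 4 co-receptor genes were all below the limit, where 49.1% of all genes were above it. Ir8a, the partner of acid-sensing receptors, had signals of 100 and 78.7 on replicates 1 and 2. Ir25a, the most widely used co-receptor, had 30.3 and 44.0. Ir76b, a co-receptor for amines, amino acids and salt, had 31.9 and 3.15, so the arrays differed by over 2-fold. Ir93a, which works with Ir25a in temperature and humidity sensing, had 8.60 and 21.5 by one probe set, and 3.96 and 3.51 by the other. No co-receptor reached the limit on either array.

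Of the 11 measured antennal tuning receptors, which sense odours, humidity or temperature, 2 (18.2%) were above the limit, against 49.1% of all genes. Ir76a, a receptor of antennal neurons tuned to amines, had 877 on replicate 1 and 672 on replicate 2, or 6.01 and 4.95 times the limit (mean 774 ± 145, SD, n = 2). Its probe set name ends in _s_at, the array maker's mark for a probe set that can match more than one transcript. Ir68a, which is needed for sensing moist air, had 326 and 307, or 2.23 and 2.26 times the limit (316 ± 13.5, SD, n = 2). For each of these genes the annotation gives 1 probe set. Ir64a, a receptor for acids, had 122 and 141, below the limit on replicate 1 and above it on replicate 2.

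The other antennal receptors stayed below the limit on both arrays. Ir40a, a receptor for dry air, had 87.0 and 81.7 by its brighter probe set, and 29.4 and 98.9 by the other. Ir21a, a cool-sensing receptor, had 58.1 and 25.9, and 19.2 and 6.65 by its second probe set. Ir41a, which senses amines, was the only member with 3 probe sets, at 30.5 and 26.5, 38.6 and 8.43, and 6.34 and 30.6. These 3 probe sets did not keep the same order on the 2 arrays. Ir92a, a receptor for ammonia and amines, had 21.7 and 23.2, and 3.29 and 15.9 by its second probe set. Ir84a, which takes part in male courtship through food odours, had 6.99 and 15.5. Ir31a, another odour receptor, had 9.00 and 5.24, and the acid receptors Ir75b and Ir75a had 5.84 and 11.4, and 7.39 and 3.05.

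Where 49.1% of all genes were above the limit, none of the remaining 38 Ir genes was, on either array. Most of the 38 are taste-type or uncharacterised receptors. Their levels ran from 3.46 to 101, with a median of 24.2, and 15 of them were under 20. Ir52d, a receptor of taste neurons on the legs, was the highest of these at 97.7 and 104. Its relative Ir52a had 80.0 and 58.7, Ir52c had 29.9 and 7.11, and Ir52b had 6.25 and 10.4. Ir7a, a taste receptor for acetic acid, had 92.1 and 79.3, while Ir7c, used for tasting high salt, had 6.09 and 7.78. Both Ir7 genes differed by under 2-fold between the arrays, and both were below the limit.

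Other Ir genes close to 100 were Ir68b (93.1 and 104), Ir10a (109 and 87.9 by 1 of 2 probe sets) and Ir54a (96.7 and 88.2). No specific ligand is given here for these 3. The second Ir10a probe set had 4.75 and 7.09. The taste receptor genes Ir56b, used for low salt, and Ir56d, used for fatty acids, had 20.1 and 15.3, and 6.87 and 7.38. Ir20a, which modifies taste responses of Ir76b neurons, had 13.1 and 8.90. The lowest Ir levels were those of Ir47a (3.13 and 6.02) and Ir48c (3.85 and 3.06). Among the 7 measured Ir94 genes levels ran from 9.22 for Ir94f to 47.3 for Ir94a, and Ir94e, a taste receptor gene of the labellum, had 14.9 and 27.8.

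In the pickpocket family ppk29 was the member above the limit on both arrays. It encodes a subunit used with ppk23 and ppk25 in leg neurons that sense contact pheromones, and had 196 and 209, or 1.35 and 1.54 times the limit (203 ± 8.89, SD, n = 2). Its partners were below the limit, with 77.8 and 75.1 for ppk23 and 2.97 and 4.49 for ppk25. The 3 genes of this channel group thus had signals on different sides of the limit, and each repeated on the second array with a difference of under 2-fold.

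The next highest ppk genes crossed the limit on replicate 1 alone. The brighter ppk18 probe set had 164 and 107, and the second had 46.6 and 53.3. For ppk15 the values were 162 and 110, and 24.8 and 64.9 by the second probe set. Neither gene has a second probe set above the limit on any array. The water taste receptor gene ppk28 followed at 108 and 112, below the limit but within 5 signal units on the 2 arrays.

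**Figure D3:**
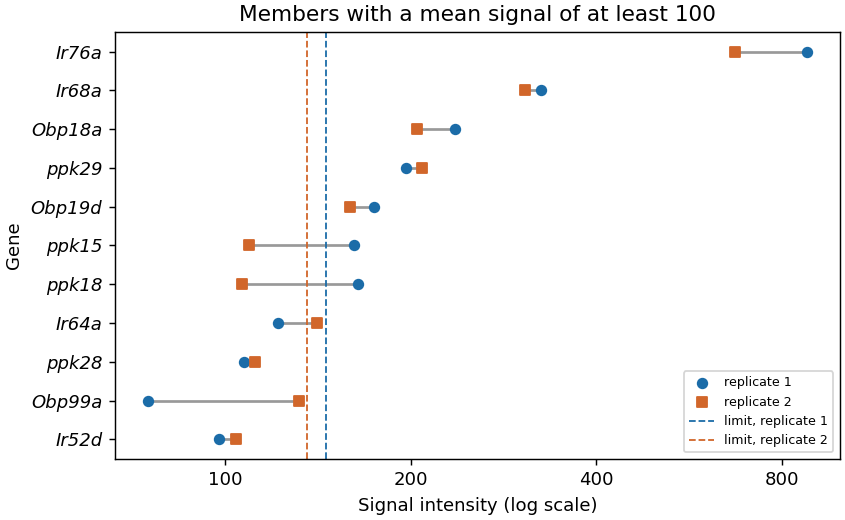
Signal intensity (log scale) on replicate 1 (circles) and replicate 2 (squares) of the 11 members whose level was at least 100, with dashed lines at the background limits of 146 and 136. Ir76a, Ir68a, Obp18a, ppk29 and Obp19d lie right of both lines, and ppk15, ppk18 and Ir64a cross them on 1 array.

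Of the 27 ppk genes 11 had levels between 50 and 100, against 8 of 53 Ir and 7 of 47 Obp genes. So had 34 of the 112 Or and Gr genes and 1658 of all 11983 genes. Among the 11 ppk genes ppk16, a subunit of a channel that adjusts transmitter release at the motor synapse, had 79.7 and 85.7. In the same range were ppk22 (75.7 and 78.8), ppk31 (71.0 and 75.2), ppk7 (91.2 and 81.2), ppk17 (99.6 and 68.7), ppk27 (104 and 74.4), and ppk9 by its brighter probe set (82.2 and 101). The second ppk9 probe set had 21.6 and 9.61. The pain-sensing channel genes ppk and ppk26 were lower, at 5.51 and 19.6, and 11.3 and 43.4. The salt taste gene ppk19 had 32.7 and 46.1. Also low were ppk5 (12.3 and 13.2), ppk10 (15.2 and 13.1) and ppk6 (9.16 and 8.36). For ppk8 the probe sets gave 28.4 and 57.0, and 12.2 and 6.69. The lowest ppk level was that of ppk25, and the family had 6 genes under 20.

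Of the odorant-binding protein genes, Obp18a and Obp19d were above the limit. Obp18a, whose function is little known, had 236 and 205, or 1.62 and 1.51 times the limit (220 ± 21.8, SD, n = 2). Obp19d, also known as Pbprp2 and made in taste organs and the antenna, had 174 and 160, or 1.19 and 1.18 times the limit (167 ± 10.5, SD, n = 2). Like that of Ir76a, the Obp19d probe set has the _s_at ending. These were the only 2 member probe sets with that ending, and both were above the limit, as were 68.9% of all single-gene probe sets with it. Without such probe sets 3 members were above the limit, and 46.3% of all genes. Of the 133 member probe sets with the plain _at ending 3 were above the limit, against 41.7% of all such single-gene probe sets.

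Obp19d was the lowest of the 5 members above the limit, and the highest level among those below it on both arrays was that of ppk28. Obp99a, at 75.1 and 132, came close on replicate 2 and was the third Obp gene by level. It is one of 6 measured Minus-C genes, a subfamily that lacks some of the conserved cysteines. None of the 6 was above the limit, against 49.1% of all genes. The Obp99a relatives Obp99b, Obp99c and Obp99d had 23.2 and 13.7, 4.37 and 5.20, and 32.7 and 26.7. Obp44a, a Minus-C gene expressed in glia, had 29.0 and 89.6. The 11 measured Plus-C genes, which carry extra cysteines, were all below the limit, with levels from 6.24 for Obp47b to 66.4 for Obp93a. Obp49a, a Plus-C protein that lowers sugar taste in the presence of bitter compounds, had 43.1 and 47.1.

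Of the other Obp genes named for their known roles, Obp28a, abundant in the fly antenna, had 13.7 and 19.6, and Obp83b (also known as OS-E) had 21.6 and 11.3. Obp84a had 55.2 and 57.3, Obp69a had 40.2 and 13.2, and Obp56d had 18.4 and 24.2. Obp59a, which is needed for humidity sensing, had 82.1 and 64.1 by one probe set and 15.7 and 10.2 by the other. Obp19a had 29.4 and 37.4, and 3.04 and 3.82, by its 2 probe sets, and Obp19c had 14.4 and 32.0, and 12.2 and 25.2. Obp57e, tied to host plant choice in flies, had 26.4 and 1.84. Obp56a had 10.2 and 8.39, and the lowest family members were Obp47b (6.08 and 6.40), Obp83cd (5.73 and 6.65) and Obp99c.

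Obp genes whose products are found in seminal fluid were also below the limit, in 6 of 6 measured cases, where 49.1% of all genes were above it. The highest of the 6 was Obp8a at 16.1 and 59.7. Obp51a had 28.6 and 36.3, Obp56i 20.6 and 26.4, Obp56f 19.4 and 23.5, and Obp56g 5.62 and 13.2. For Obp22a replicate 1 gave 43.4 and replicate 2 gave 2.58, the largest difference between the arrays among all member probe sets.

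Many Ir and Obp genes lie in groups named for the same stretch of chromosome. For 13 such groups with at least 3 measured genes, 57 genes in all, 1 gene was above the limit, Obp19d, against 49.1% of all genes. The other 3 measured Obp19 genes were below it, with Obp19b at 33.1 and 75.1. In the Obp56 group of 9 genes levels ran from 9.30 to 68.4 (Obp56e, at 82.9 and 54.0), and in the Obp57 group of 4 from 6.26 to 18.8. The 4 measured Obp83 genes ran from 6.19 to 58.7, the last being Obp83g with 97.6 and 19.8.

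Of the 5 members above the limit 4 overlap or lie within 1000 bp of a gene above it that is no member, as do 34 of all 127 members. The like share was not worked out for all genes. By the RefSeq gene table of the release 6 assembly, the span of ppk29 overlaps sei, a potassium channel gene. Transcripts of sei and ppk29 are known in flies to overlap at their 3′ ends on opposite strands. The sei signals were 199 and 219, beside 196 and 209 for ppk29. Also overlapping ppk29, CG13563 had 30.0 and 51.0, while eEF5, a translation factor gene within 1000 bp of it, had 16718 and 19693.

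Ir76a overlaps CG14102, which had 204 and 285, and lies within 1000 bp of SREBP (7146 and 7217), a regulator of lipid synthesis, and TORIP (2568 and 2286). Obp18a lies within 1000 bp of RhoGAP18B (3392 and 3660), and Obp19d within 1000 bp of Pp4-19C (2030 and 1917), a phosphatase gene. Ir68a had no protein-coding gene above the limit within that distance. Where the probes of these sets lie within the genes is not given in the sources used here, and the part of the neighbours in these signals was not tested.

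Over all members, 34 overlapped or lay within 1000 bp of a protein-coding gene above the limit that is no member, and 4 of these (11.8%) were above it. Of the other 93 members 1 was (1.08%), against the 49.1% of all genes whatever their neighbours. The split by neighbours was made for members only. The median level was 40.7 in the 34 and 25.9 in the 93. Most members with such a neighbour, 30 of the 34, were below the limit. Among the 13 that overlapped such a gene 11 were below it. Obp73a, for example, had 22.0 and 10.5 while Ogdh, which it overlaps, had 4143 and 4434. Similarly ppk19 stood at 32.7 and 46.1 beside 2784 and 2699 for Bub3, and Ir51b at 14.2 and 11.2 beside 2195 and 2136 for row. Some stood closer to the limit, such as ppk27 at 104 and 74.4 beside 568 and 749 for CG32264.

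Of the 13 members measured by more than 1 probe set, with 27 probe sets in all, none had a probe set above the limit on both arrays, where 48.4% of all genes with several probe sets did. In 11 of them no probe set passed on either array, and the other 2 were ppk15 and ppk18. The 5 members above the limit each had a single probe set, so their calls have no second probe set to set beside them.

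The duplicates differed more at the low signals where most members lie than at high ones. Over the 141 member probe sets the SD of the log2 difference, replicate 2 minus replicate 1, was 1.26, against 0.89 over all probe sets. Signals under 1 would have been raised to 1 before the logarithm, though no member was that low. A difference of over 2-fold was seen in 50 of the 141 (35.5%), of which 27 were higher on replicate 2 and 23 on replicate 1. Over all 13647 single-gene probe sets it was seen in 2072 (15.2%). At mean signals under 20 it was seen in 22 of 55 member probe sets and 1435 of all 4203. From 20 to 50 it was seen in 22 of 48 and 1593 of 3686. Of the 141 member probe sets 73 were higher on replicate 2 and 68 on replicate 1, with a median difference of 0.06.

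The spread was smaller at mean signals above 50 than below, in the members and in all probe sets. For members with a mean under 20, from 20 to 50, from 50 to 100 and from 100 upwards the SD was 1.36, 1.45, 0.87 and 0.40, over 55, 48, 27 and 11 probe sets. Over all probe sets of the same classes it was 1.19, 1.37, 0.72 and 0.26. The class from 100 upwards has only 11 members. In the 5 member probe sets above the limit the SD was 0.17, against 0.23 over all probe sets above it. Passing on both arrays was required for these sets, which favours small differences. Over the 8 member probe sets above the limit on at least 1 array the SD was 0.30. Across the 141 member probe sets, which share the 2 arrays and are not independent, log2 signals had a Pearson's r of 0.69 and a Spearman's rho of 0.67. For the 133 above neither limit they were 0.60 and 0.61.

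**Figure D4:**
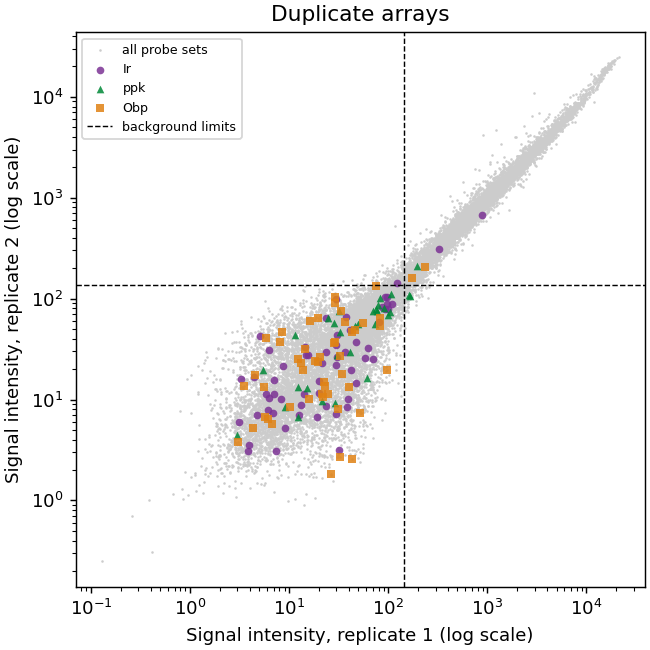
Signal intensity on replicate 1 (horizontal) and replicate 2 (vertical), both on log scales, for Ir, ppk and Obp probe sets over all probe sets in grey; dashed lines are the background limits. The 5 members at the upper right of both lines lie close to the diagonal, and members at low signals scatter widely, with an SD of the log2 difference of 1.26 over all 141.

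The 5 largest differences were all at signals under 50, and so below the limit, on both arrays. On the log2 scale Obp22a differed by -4.08, Obp57e by -3.84, Obp57a by -3.59 (32.5 and 2.70), Ir76b by -3.34 and Ir11a by 3.06 (5.10 and 42.6). By family the SD was 1.18 for Ir, 0.87 for ppk and 1.55 for Obp probe sets.

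**Figure D5:**
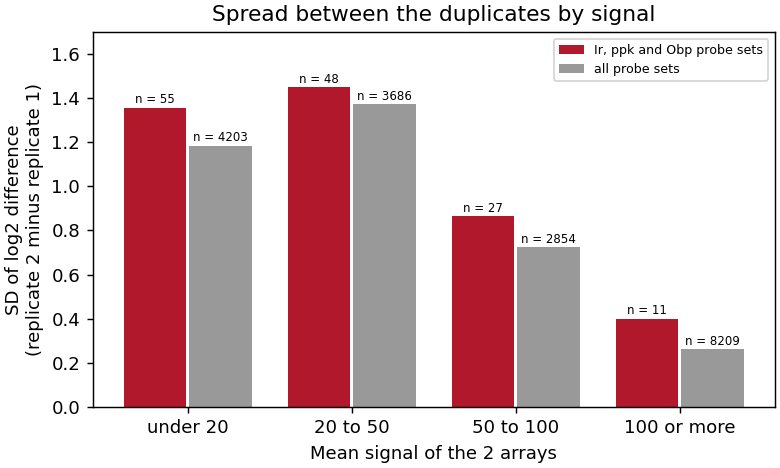
SD of the log2 difference between the arrays (replicate 2 minus replicate 1) in 4 classes of mean signal, for member probe sets (left bars) and all probe sets (right bars), with the number of probe sets above each bar. The SD of members is 1.36 and 1.45 in the lower classes and 0.40 at a mean of 100 or more.

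Genes that work beside these families in sensory organs were mostly below the limit too. Of 55 measured genes in 7 related lists 1 (1.82%) was above the limit, where 49.1% of all genes were. The exception was GluRIIA, a glutamate receptor subunit of the muscle synapse, at 569 and 346, and the other 11 measured glutamate receptor genes were below the limit. Neto, an auxiliary subunit of these receptors, had 88.8 and 183 and passed on 1 array. All 7 olfactory sensillum genes were below the limit, with Orco, the co-receptor of odorant receptors, at a mean of 85.2, and lush, an odorant-binding protein gene named outside the Obp series, at 53.6. None of 12 CheA and CheB genes, 12 cilium and mechanosensory genes or 8 proneural genes was above it.

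Of 11 markers of hemocytes, the cells that S2 cells resemble, 10 were above the limit, against 49.1% of all genes. Among them were Hml (4877 and 4141), a clotting protein gene, and srp (8547 and 8747), a blood cell transcription factor gene. The marker below it was NimC1 (96.6 and 127). Of 6 measured neuron markers elav (209 and 183) and Csp (2553 and 2386) were above it, while nSyb (mean 17.5) and brp (mean 73.4), which define synapses, were not. The 3 measured markers of sensillum support cells, sv, pros and nompA, had means of 32.1, 35.6 and 77.5. Glia had 2 of 4 markers above the limit, moody and Gs2, but not repo, the defining glial gene (mean 51.1), and fat body 2 of 4, Lsp2 and Npc2g. These shares of 50% are close to the 49.1% of all genes. None of 2 testis or 3 muscle markers was above the limit.

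Another 19 genes of the families, of 146 in the gene table, had no probe set of their own and were not analysed as members. Of these 6 are listed as pseudogenes. For 4 of the 19 a probe set was shared with another gene, in 5 probe sets in all, and none was above the limit on both arrays. The pair shared by Obp50b and Obp50c had 65.4 and 51.2, and 86.1 and 143, the last above the limit on replicate 2. The probe set shared by Ir75d and COX6AL2 had 72.0 and 69.4.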

How the data were processed

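For each array the authors deposited a table of linear signal intensity values, 1 for each probe set, without detection calls. How probes were combined and whether arrays were scaled is not given in the sources used here, and the values were used as they stand. The array annotation named 13647 probe sets by 1 gene, 402 by several and 4903 by none. Symbols were updated through gene identifiers in the RefSeq table (release 6), which held 11894 of 11983 genes. That table gives no strand and its coordinates served only to find neighbours. No probe, promoter or protein sequences were used here. The limit, levels and log2 differences are defined in the text. With 1 group of 2 arrays there is no test, and the number of arrays limits precision. The calculation of the calls was checked on simulated data, with some members set far above the limit. That check cannot judge calls close to the limit. Members, gene lists and the naming rule (members above the limit on an array, the 3 highest and lowest of each family, members of known role, the 5 largest differences, members with several probe sets or next to the limit) were chosen with earlier results of these data known. Genes named beyond that rule, such as other members of a group, were chosen after their values were seen. Alternatives changed the limit, probe sets, floor, scaling and arrays. Python 3.11.15, pandas 2.3.3 and numpy 2.4.6 were used.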

Additional observations from a re-analysis of the deposited data

How the results depend on the processing

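The count of 5 members above the limit rested on where the limit was set. It was 2 with the 99th percentile of receptor signals, 7 with the 90th, and 25 with the lower limit drawn from control probe sets. The same 5 genes passed where all probe sets had to pass and among genes with 1 probe set. Each of them has 1 probe set, so these settings could not remove any. With either array left out the count was 6 to 7, and it could not fall, since passing on both arrays is the stricter rule. Settings chosen after the data were seen gave 3 of 125 members without _s_at probe sets (Ir68a, Obp18a and ppk29), where 46.3% of all genes passed. Without the 34 members near a gene above the limit 1 of 93 (Ir68a) passed. No like share was worked out for all genes. The median level was 27.7 to 29.4 with an array left out. The SD between the arrays was 0.76 with signals under 16 raised to 16, which removes most of the low range, and 0.30 over the 8 probe sets above the limit on at least 1 array. No paired analysis was possible because the arrays form a single group. Signals near or under the limit set no order among genes.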
